A study of Mus musculus with 6 samples.

Results

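The 38 Hox genes listed for all 6 single-nucleus RNA-seq (snRNA-seq) libraries of mouse tibial periosteum were followed across cell populations and time after fracture. They were chosen by symbol, as members of the HoxA, HoxB, HoxC and HoxD clusters. They are 38 of the 30406 genes that the 6 libraries share. All nuclei came from 12-week-old C57BL6 mice (C57BL/6ScNj in the study's methods), with males and females mixed. The 2 uninjured libraries hold nuclei scraped from the periosteum of intact tibias, pooled from 4 mice after the marrow was flushed and the muscle dissected away. The fracture libraries hold periosteum together with the hematoma, at day 3 (2 libraries), day 5 (1 library) and day 7 (1 library) after an open non-stabilized tibial fracture, with 4 to 9 mice collected for the fracture time points. Hematoma is therefore present in every fracture library and in no uninjured library, and p-values below measure only the spread between these pooled libraries.

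Hox genes encode homeodomain transcription factors that give cells their position along the body axis. They lie in clusters, and genes at the 3′ end of a cluster (the low paralogue numbers) are expressed further towards the head than those at its 5′ end. Genes with the same number in different clusters are paralogues that arose by duplication. In limbs, the 5′ genes of HoxA and HoxD pattern the segments of the skeleton, HoxC genes are used in the hindlimb, and adult connective tissue and bone keep a part of this regional code. HoxA lies on the minus strand of chromosome 6, HoxB on the plus strand of chromosome 11, HoxC on the plus strand of chromosome 15 and HoxD on the plus strand of chromosome 2 (GRCm38).

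The homeobox, the part of each gene that encodes the DNA-binding homeodomain, is shown for the HoxB and HoxC members of paralogue groups 6 and 9, since the 2 clusters marked different populations below. The sequences were read from the GENCODE transcripts of GRCm38 in the coding orientation, each is 180 bases (60 codons) within 1 exon, and the capitals mark the positions at which the pair of the same group differs.
Hoxb6 (chr11:96300689-96300868, plus strand): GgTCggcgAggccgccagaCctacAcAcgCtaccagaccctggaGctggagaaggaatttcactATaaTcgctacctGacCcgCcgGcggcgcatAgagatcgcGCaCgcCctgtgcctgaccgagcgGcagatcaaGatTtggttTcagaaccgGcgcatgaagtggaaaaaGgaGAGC
Hoxc6 (chr15:103010754-103010933, plus strand): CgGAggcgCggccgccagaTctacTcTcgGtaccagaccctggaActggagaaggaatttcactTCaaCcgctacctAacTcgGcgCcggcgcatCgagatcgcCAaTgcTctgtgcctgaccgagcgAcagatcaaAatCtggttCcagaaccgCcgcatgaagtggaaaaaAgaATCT
Hoxb9 (chr11:96274659-96274838, plus strand): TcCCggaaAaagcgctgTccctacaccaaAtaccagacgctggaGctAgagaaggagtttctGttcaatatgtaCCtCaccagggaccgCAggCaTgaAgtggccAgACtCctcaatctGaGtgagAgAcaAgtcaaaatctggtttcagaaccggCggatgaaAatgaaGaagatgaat
Hoxc9 (chr15:102983930-102984109, plus strand): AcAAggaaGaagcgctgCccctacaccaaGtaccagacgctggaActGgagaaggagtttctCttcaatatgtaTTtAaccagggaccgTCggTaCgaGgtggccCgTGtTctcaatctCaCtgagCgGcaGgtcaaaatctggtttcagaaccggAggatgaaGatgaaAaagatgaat

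Hoxb6 and Hoxc6 shared 149 of these 180 bases (82.8%). They differed in 25 codons but in only 5 amino acids of the homeodomain. Hoxb9 and Hoxc9 shared 151 bases (83.9%) and differed in 23 codons and 4 amino acids. The longest run of identical bases was 19 between Hoxb6 and Hoxc6 and 24 between Hoxb9 and Hoxc9.

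After filtering, 8073 nuclei remained of 13551 barcodes, between 644 and 2423 a library, with a median of 1283 to 4241 UMIs (unique molecular identifiers, each a counted RNA molecule) a nucleus. At most 7 barcodes were shared between any pair of libraries. The depth of 1499281 to 29796296 UMIs a library limits what can be seen of weakly expressed members, and intervals below are exact Poisson or binomial 95% intervals that cover counting error only. Nuclei were clustered without Hox genes and each population was named from marker genes. The largest were stromal-like (3006 nuclei), immune-like (1976), myofibre-like (1599), endothelial-like (802) and pericyte/SMC-like nuclei (pericytes and smooth muscle cells, 242). Levels are given as CPM, the UMIs of a gene scaled to a common total of UMIs for each population and library. A CPM cannot tell fewer expressing nuclei from less RNA in each.

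The members gave 11085 UMIs in the filtered nuclei. Hoxb1, Hoxb13, Hoxc12, Hoxd1, Hoxd12 and Hoxd13 had no UMI. Hoxa13 had 12 UMIs and Hoxc13 had 4. A further 24 members are described individually, and 21 passed the low-count filter of at least 1 test. The remaining 6, Hoxa2, Hoxa4, Hoxb2, Hoxb7, Hoxd9 and Hoxd10, gave between 22 and 53 UMIs and enter the sums. Of the members with no UMI or few, Hoxa13, Hoxd12 and Hoxd13 belong to the distal limb code.

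For 14 members, another annotated gene on the same strand overlaps the gene, in 13 of them over more than 50% of its length. The span of Hoxa3 covers Hoxa4, Hoxa5 and Hoxa6, that of Hoxc5 covers most or all of Hoxc6, Hoxc8, Hoxc9 and Hoxc10, and Hoxd3 and Hoxd4 overlap each other. Intronic and exonic reads were both counted, so how reads were divided within these sets is uncertain. Hoxa7, Hoxa9, Hoxa10, Hoxc4, Hoxd8 and the HoxB members have no such partner.

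**Figure D1:**
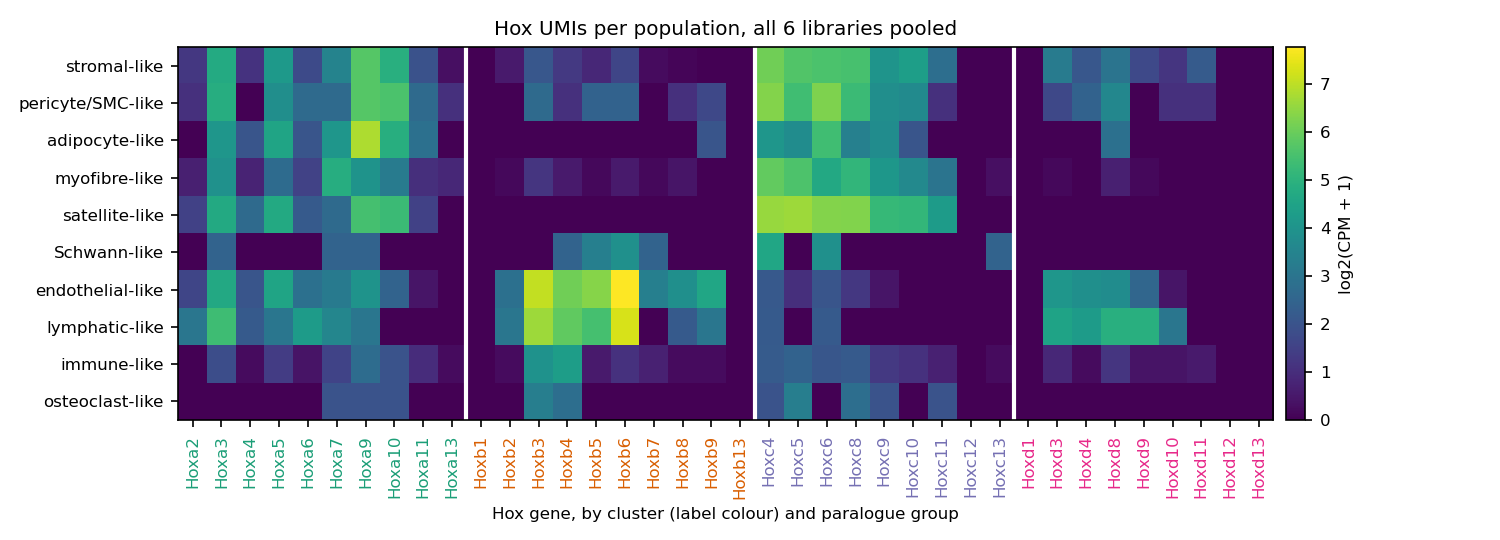
Pooled level of the 38 Hox members (columns, label colour by cluster, white lines between clusters) in 10 populations (rows), as log2 of CPM plus 1 with all 6 libraries pooled. Hoxb3 to Hoxb6 are brightest in endothelial-like and lymphatic-like nuclei, and Hoxc4 to Hoxc8 in stromal-like, pericyte/SMC-like, myofibre-like and satellite-like nuclei.

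Stromal-like nuclei carried mainly HoxC and HoxA transcripts, and endothelial-like nuclei mainly HoxB transcripts. In stromal-like nuclei the summed HoxC level was 249 CPM (240–258), or 58.4% of their Hox UMIs, and HoxA made up 33.6%. HoxB made up 1.98% (8.43 CPM) and HoxD 6.10% (26.0 CPM). In endothelial-like nuclei HoxB made up 79.4% (553 CPM, 526–581), HoxA 12.4%, HoxD 6.83% and HoxC 1.37% (9.52 CPM).

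Across the 6 libraries the HoxB sum of endothelial-like nuclei had a lowest value of 336, a median of 477 and a highest of 748 CPM. In stromal-like nuclei it ran from 6.44 to 21.4 CPM with a median of 8.16. The HoxC sum ran from 196 to 333 CPM in stromal-like nuclei (median 257) and from 0.94 to 45.3 CPM in endothelial-like nuclei (median 11.4). The ranges of neither sum overlapped between these populations. The HoxA sums were closer, with 81.1 to 195 CPM in stromal-like and 46.3 to 121 CPM in endothelial-like nuclei.

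**Figure D2:**
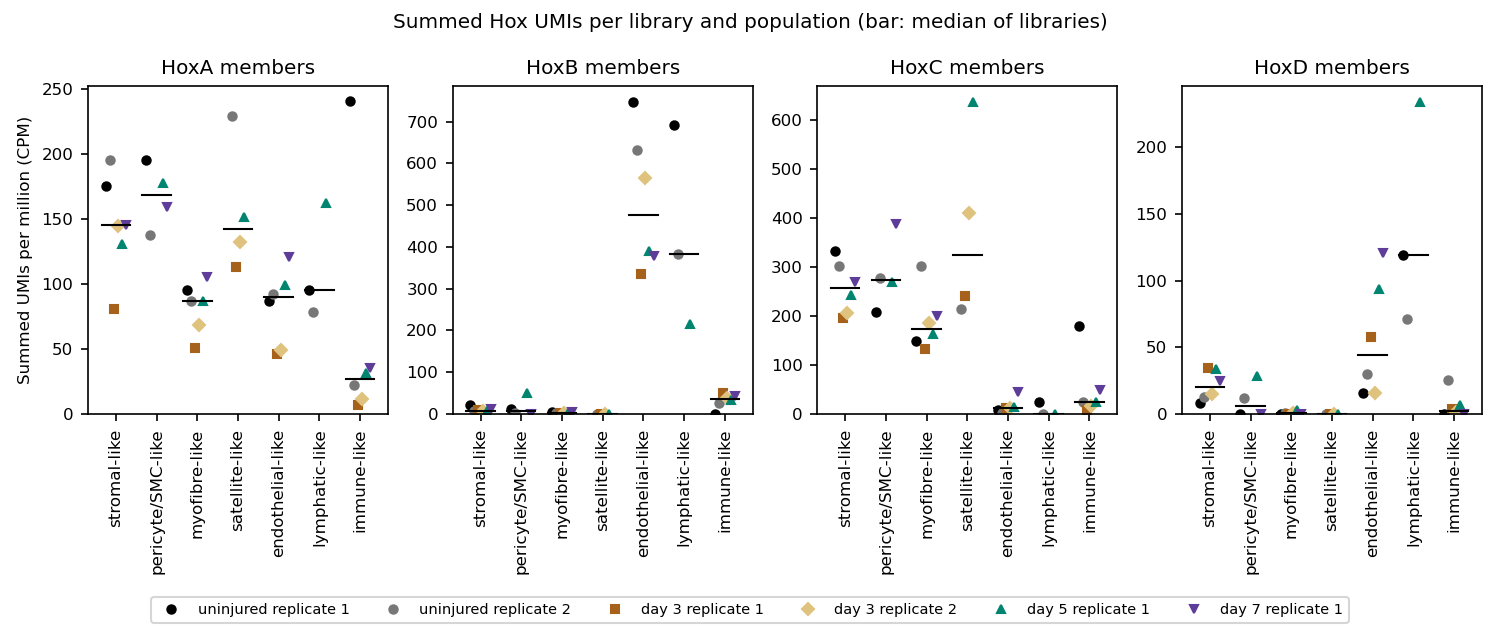
Summed CPM of the HoxA, HoxB, HoxC and HoxD members (1 panel each, linear axis) in each library (points, bar at the median of libraries) for 7 populations. The HoxB points of endothelial-like nuclei (336 to 748 CPM) lie above all those of stromal-like nuclei (6.44 to 21.4 CPM), and the HoxC points lie the other way.

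HoxB was the main cluster of the vessels, led by Hoxb6 and Hoxb3. Hoxb6 gave 291 and 279 CPM in uninjured endothelial-like nuclei. After fracture it gave 139 and 187 CPM (day 3), 125 CPM (day 5) and 212 CPM (day 7). In stromal-like nuclei its highest value in any library was 8.54 CPM. Hoxb3, a more 3′ gene, gave 225 and 130.1 CPM in uninjured endothelial-like nuclei, then 69.4 and 155 CPM (day 3), 88.3 CPM (day 5) and 113 CPM (day 7). Both genes were thus far above the stromal-like range in every library, for Hoxb3 2.13 to 4.27 CPM. Hoxb5 ran from 22.7 to 95.1 CPM in endothelial-like nuclei (median 79.5), and Hoxb4 from 11.6 to 87.2 CPM (median 61.4). In stromal-like nuclei Hoxb5 reached at most 4.27 CPM and Hoxb4 at most 6.40 CPM, so the ranges did not overlap for either gene.

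The 5′ HoxB members were lower but kept the same side. Hoxb8 gave 39 UMIs in endothelial-like nuclei and 1 in stromal-like nuclei, a ratio of 170 between the CPM values with a wide counting interval of 28.7 to 6869. Hoxb9 gave 66 UMIs against 0, at least 95.7-fold higher when 3 UMIs over the pooled stromal-like nuclei are taken as the floor. Day 7 endothelial-like nuclei, of which there were 77, held no UMI of either gene. Hoxb2 (18 against 6 UMIs) and Hoxb7 (26 against 2 UMIs) were too sparse for the filter, with pooled ratios of 13.05 (4.96–40.2) and 56.5 (14.2–492).

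The HoxC members lay on the other side. Hoxc4 ran from 41.4 to 128 CPM in stromal-like nuclei (median 73.5) and from 0 to 7.56 CPM in endothelial-like nuclei (median 3.77). Hoxc6, the paralogue of Hoxb6, gave 55.5 and 57.3 CPM in uninjured stromal-like nuclei, then 23.5 and 50.6 CPM (day 3), 45.9 CPM (day 5) and 36.7 CPM (day 7). It gave 9 UMIs in all endothelial-like nuclei together, 3.17 CPM. Hoxc8 ran from 29.9 to 51.1 CPM in stromal-like nuclei (median 37.7) against 4 UMIs in endothelial-like nuclei. Hoxc5 (609 against 3 UMIs) had a pooled ratio of 46.7 (15.9–227), and Hoxc9 (190 against 1 UMI) of 43.7 (7.75–1735). Hoxc10 (239 against 0 UMIs) was at least 18.3-fold, Hoxc11 (75 against 0) at least 5.75-fold and Hoxd11 (46 against 0) at least 3.53-fold higher in stromal-like nuclei.

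Of the 38 members, 18 could be tested between stromal-like and endothelial-like nuclei with edgeR's quasi-likelihood test and the library as a block. Over all 9902 genes tested, 31.2% were called at an adjusted p under 0.05, 17.5% as higher and 13.7% as lower in stromal-like nuclei. The members gave 8 higher calls, all in HoxA and HoxC, and 8 lower calls, all in HoxB and HoxD, and 2 were not called. Since members pass the filter only where 1 of the populations is high, these counts describe the tested members and not the clusters as a whole. Hoxc4 was 20.8-fold higher in stromal-like nuclei (log2 fold change 4.38 ± 0.38 SE, adjusted p = 6.25e-06). Hoxc6 was 14.3-fold higher (3.84 ± 0.53, adjusted p = 0.00018) and Hoxc8 25.5-fold (4.67 ± 0.56, adjusted p = 5.83e-05). In the other direction, Hoxb6 was 75.5-fold lower (−6.24 ± 0.32, adjusted p = 3.25e-07) and Hoxb5 81.8-fold (−6.35 ± 0.43, adjusted p = 1.34e-06). Hoxb3 was 33.5-fold lower (−5.07 ± 0.25, adjusted p = 2.23e-07) and Hoxb4 30.6-fold (−4.94 ± 0.60, adjusted p = 6.77e-05).

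HoxA members differed in their calls. The 5′ members Hoxa9 and Hoxa10 were higher in stromal-like nuclei, while the test called no difference for the 3′ members Hoxa3 and Hoxa5. Hoxa9 ran from 32.0 to 71.4 CPM in stromal-like nuclei (median 53.2) and from 5.43 to 30.2 CPM in endothelial-like nuclei (median 15.2), without overlap. It was 3.96-fold higher (1.98 ± 0.30, adjusted p = 0.000317). Hoxa10 gave 17.1 to 48.0 CPM against 0 to 8.15 CPM and was 7.97-fold higher (3.00 ± 0.51, adjusted p = 0.000813). Hoxa3 (log2 fold change −0.09 ± 0.29) and Hoxa5 (−0.15 ± 0.30) had overlapping ranges, 8.76 to 39.0 against 11.6 to 46.2 CPM for Hoxa3 and 8.53 to 26.9 against 11.6 to 30.2 CPM for Hoxa5. Both lie under other genes of the same strand. Hoxa6 and Hoxa11 did not pass the filter of any test. Hoxa6 gave 18 UMIs in endothelial-like nuclei, 6.35 CPM (3.76–10.0), and 29 UMIs in stromal-like nuclei, 2.35 CPM (1.57–3.38). Hoxa11, a 5′ gene, gave 1 UMI in endothelial-like and 36 UMIs in stromal-like nuclei, 2.92 CPM (2.04–4.04).

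By paralogue number, groups 9 to 13 gave 31.1% of the Hox UMIs in stromal-like nuclei and 6.98% in endothelial-like nuclei. Groups 5 to 8 gave 42.3% and 54.3%, and groups 1 to 4 gave 26.5% and 38.7%. Group 6 alone gave 32.7% in endothelial-like nuclei, most of it Hoxb6, against 11.9% in stromal-like nuclei, most of it Hoxc6. Within groups, the HoxB and HoxC paralogues whose homeoboxes are printed above were on opposite sides.

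**Figure D3:**
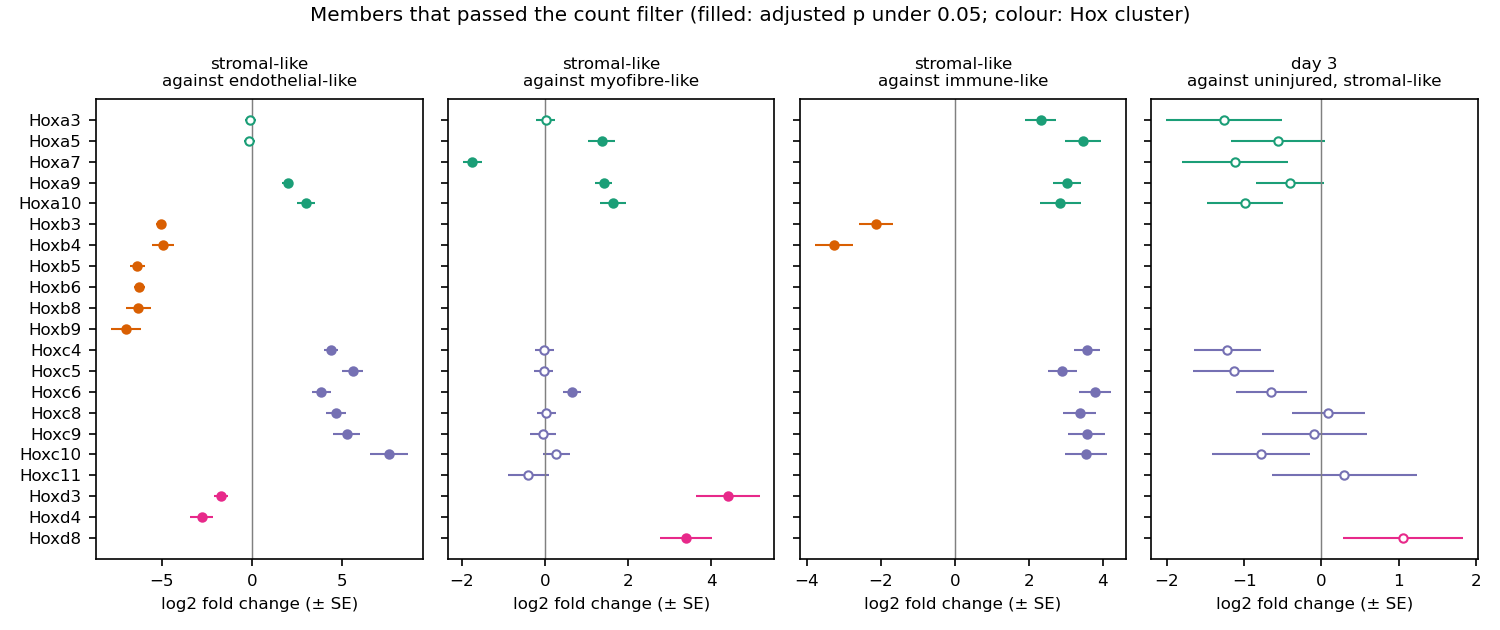
Log2 fold change ± SE (edgeR) of each Hox member that passed the count filter, in stromal-like nuclei against endothelial-like, myofibre-like and immune-like nuclei and at day 3 against uninjured, with filled points at an adjusted p under 0.05. Against endothelial-like nuclei the called HoxA and HoxC members lie right of 0 and the HoxB and HoxD members left of 0; the points of Hoxb9 and Hoxc10, each without a UMI in 1 population, are fitted values and no bounds.

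The HoxD members Hoxd3 and Hoxd4 differed between sets of libraries that list different numbers of genes. In the libraries with the shorter list (both uninjured and day 3 replicate 2), Hoxd3 ran from 0 to 1.76 CPM in stromal-like nuclei, and in those with a longer list (day 3 replicate 1, day 5 and day 7) from 8.53 to 12.1 CPM. In endothelial-like nuclei the ranges were 2.25 to 2.83 and 35.3 to 68.0 CPM. Hoxd3 was thus higher in endothelial-like than in stromal-like nuclei within each set of libraries, and higher in the second set within both populations. Over all libraries it was lower in stromal-like nuclei (log2 fold change −1.71 ± 0.40, adjusted p = 0.00628), as was Hoxd4 (−2.80 ± 0.63, adjusted p = 0.00575). Hoxd4 was at 0 in stromal-like nuclei of the first set and at 2.13 to 5.39 CPM in the second. Stromal-like Hoxa5, Hoxa6, Hoxa10, Hoxc6, Hoxd9 and Hoxd11, endothelial-like Hoxb3 and Hoxb4, and myofibre-like Hoxa6 and Hoxa7 did not overlap between the sets either. The share of all genes that separate the sets in this way is not given here, so this is not shown to be particular to these members. The gene list and the library cannot be told apart, and both uninjured libraries have the shorter list. For these members a difference between time points therefore cannot be told apart from one between gene lists, which also holds for their values over time given above and below.

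Endothelial-like nuclei fell into 3 clusters, and HoxB was high in each. The HoxB sum was 676 CPM (630–724) in the cluster led by Vwf and Selp (235 nuclei), 597 CPM (526–675) in that led by Bmx, Sema3g and Gja5 (125 nuclei) and 420.0 CPM (385–458) in that led by Adgrl4 and Egfl7 (442 nuclei). Vwf and Selp are known from veins, and Bmx, Sema3g and Gja5 from arteries. Hoxb6 gave 289, 229 and 148 CPM in these clusters, and Hoxb3 gave 150.1, 175 and 103 CPM. Lymphatic-like nuclei (91 in all, 3 libraries with at least 10) also had HoxB as their main cluster, with 374 CPM (305–454) or 64.4% of their Hox UMIs. HoxD gave 105 CPM there and HoxC 7.27 CPM, from 2 UMIs.

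Pericytes and smooth muscle cells ensheathe the endothelium, but in pericyte/SMC-like nuclei HoxC was the main cluster, as in stromal-like nuclei. HoxC made up 57.1% of their Hox UMIs (261 CPM), HoxA gave 157 CPM and HoxB 18.7 CPM. In the 4 libraries with at least 10 of these nuclei, Hoxc4 gave 73.4 and 86.9 CPM uninjured, 88.8 at day 5 and 114 at day 7, within the stromal-like range of 41.4 to 128 CPM. Hoxa9 gave 73.4, 53.9, 39.1 and 68.4 CPM in the same libraries. Of 38 members 7 passed the filter and 0 were called by edgeR or by DESeq2, with 0 at an unadjusted p under 0.05, against 10.5% of the 6606 genes tested (6.22% higher and 4.28% lower). The log2 fold changes of stromal-like against pericyte/SMC-like nuclei ran from −0.72 ± 0.33 for Hoxc6 (adjusted p = 0.246) to 0.52 ± 0.47 for Hoxc5 (adjusted p = 0.619). With 4 libraries and 242 nuclei, a missed call does not show equal levels, and the size of difference this test could detect was not measured. No HoxB or HoxD member was tested here.

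HoxC was also the main cluster of myofibre-like nuclei, and HoxD gave few UMIs there. HoxC made up 71.5% of their Hox UMIs, with a lowest, median and highest library of 133, 174 and 302 CPM. The HoxD sum was 0.83 CPM, from 7 UMIs, against 26.0 CPM in stromal-like nuclei, and HoxB gave 2.97 CPM. Hoxa7 was the member that was higher than in the stroma. It gave 40.4 and 32.0 CPM in uninjured myofibre-like nuclei, then 17.9 and 27.6 CPM (day 3), 26.5 CPM (day 5) and 27.2 CPM (day 7). In stromal-like nuclei it ran from 7.46 to 18.1 CPM, so its highest value there was slightly above the lowest in myofibre-like nuclei, from another library.

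Against myofibre-like nuclei 14 of the 38 members were tested, with 6 called higher and 1 lower in stromal-like nuclei. Over all 12683 genes tested, 48.4% were called, 27% higher and 21.4% lower. Hoxa7 was 3.37-fold lower (log2 fold change −1.75 ± 0.23, adjusted p = 0.000133). The higher calls included the 5′ HoxA genes, Hoxa9 2.66-fold (1.41 ± 0.20, adjusted p = 0.000281) and Hoxa10 3.12-fold (1.64 ± 0.32, adjusted p = 0.00194). Hoxd8 was higher (3.40 ± 0.63, adjusted p = 0.00144), with 86 UMIs in stromal-like and 5 in myofibre-like nuclei. Hoxd3 was called higher too (104 against 1 UMI, adjusted p = 0.00129), with a pooled ratio of 70.9 (12.4–2826), and Hoxd11 (46 against 0) was at least 10.5-fold higher. Hoxa5 (1.37 ± 0.32, adjusted p = 0.00529) was called as well. Hoxc6 (0.66 ± 0.22, adjusted p = 0.0281) was no longer called in 7 of the alternatives, among them those without day 3 replicate 2 (adjusted p = 0.0567), without day 5 (0.0741) or without day 7 (0.0656). Not called were Hoxa3, Hoxc4 (−0.02 ± 0.23), Hoxc5, Hoxc8, Hoxc9, Hoxc10 and Hoxc11. For Hoxc4 the library ranges were 41.4 to 128 CPM in stromal-like and 41.6 to 87.2 CPM in myofibre-like nuclei.

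Among the myofibre-like clusters, HoxC was highest in the one led by Myh4, a fast myosin heavy chain (257 CPM, 239–276, 516 nuclei). It gave 196 CPM (181–213) in the cluster led by Myh2 and 157 CPM (140–176) in that led by Ankrd1 and Trim63. In the cluster led by Myh3, the embryonic myosin heavy chain (116 nuclei), it gave 91.9 CPM (70.3–118). In the same order Hoxa7 gave 34.2 (27.8–41.7), 30.5 (24.6–37.4), 18.5 (12.9–25.7) and 12.1 CPM (5.20–23.8). The intervals of neighbouring clusters overlapped, and these pooled levels were not tested. Satellite-like nuclei, the muscle stem cells (140 nuclei), gave 441 CPM of HoxC, 74.5% of their 326 Hox UMIs. They held no HoxB and no HoxD UMI, which allows up to 6.69 CPM for each sum.

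Immune-like nuclei had few Hox transcripts, 74.9 CPM in all against 427 CPM in stromal-like nuclei, and 48.9% of them were HoxB. Of their 225 HoxB UMIs, Hoxb4 gave 118 (19.2 CPM) and Hoxb3 90 (14.7 CPM), whereas Hoxb6, which led in the vessels, gave 7 and Hoxb5 gave 3. Hoxb4 is known from blood stem cells. Hoxb4 ran from 0 to 39.3 CPM in immune-like nuclei with a median of 15.3, and Hoxb3 from 0 to 28.1 CPM with a median of 12.3. The 0 came from uninjured replicate 1, with 22 immune-like nuclei. In the other 5 libraries Hoxb3 was above the stromal-like range, and Hoxb4 was in 4 of them.

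Of 12 members tested between stromal-like and immune-like nuclei, 10 were called higher and 2 lower, beside 21.9% and 19.2% of the 10929 genes tested, 41.1% in either direction. Here too, as in the other comparisons between populations, members pass the filter only where 1 of the populations is high. These counts therefore describe the tested members and not the clusters as a whole. The 2 lower members were Hoxb4 (log2 fold change −3.27 ± 0.52, 9.68-fold, adjusted p = 6.58e-05) and Hoxb3 (−2.14 ± 0.47, 4.41-fold, adjusted p = 0.00106). Neither passed the count filter without day 3 replicate 2 or without day 5, which left 0 lower calls, and 1 was left without day 7. The 10 higher members, in HoxA and HoxC, had log2 fold changes from 2.32 (Hoxa3) to 3.79 (Hoxc6). In its highest immune-like library Hoxa10 gave 241 CPM, above its stromal-like range, and Hoxc5, Hoxc6 and Hoxc8 each reached 60.2 CPM. Their immune-like medians were 3.42, 4.54, 1.63 and 4.80 CPM. With the uninjured libraries alone, Hoxa10 (edgeR adjusted p = 0.463) and Hoxc4 (0.104) were no longer called. Among the immune-like clusters, the HoxA and HoxC levels were highest in that led by Csf3r and Sorl1 (395 nuclei, 270 of them from day 3 replicate 2, median 802 UMIs). It held 38 of the 101 HoxA UMIs and 43 of the 113 HoxC UMIs of immune-like nuclei, and gave 89.9 CPM of HoxA and 102 CPM of HoxC, against 3.90 to 20.7 CPM for either sum in the other 4 clusters. HoxB ran from 11.1 to 50.1 CPM across the 5 clusters, and was highest in that led by Hpgds and Mrc1, a macrophage marker.

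Some marker lists were also high outside their own population. The fibroblast list summed to 9469 CPM in Schwann-like and 4787 CPM in fibroblast-like nuclei. The osteoblast list gave 3046 CPM in chondrocyte-like and 6824 CPM in osteoblast-like nuclei. The endothelial and myofibre lists were low but not at 0 in stromal-like nuclei. The endothelial marker list summed to 5206 CPM in endothelial-like and 81.7 CPM in stromal-like nuclei, and the myofibre list to 38584 CPM in myofibre-like and 408 CPM in stromal-like nuclei. Their part in the low values, such as the 2.11 CPM of Hoxb6 in stromal-like nuclei, was not tested.

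The share of nuclei with at least 1 UMI was compared after each nucleus was thinned to 500 UMIs. HoxB UMIs were found in 22.8% (20.0–25.9) of endothelial-like nuclei and 16.5% of lymphatic-like nuclei. The share was 0.73% in stromal-like, 0.44% in myofibre-like and 2.04% in immune-like nuclei. HoxC UMIs were found in 12.5% (11.3–13.7) of stromal-like, 14.0% of pericyte/SMC-like, 19.3% of satellite-like and 9.14% of myofibre-like nuclei. Endothelial-like nuclei had 0.62%. Without thinning, at median depths of 2657.5 UMIs in stromal-like and 2208 UMIs in endothelial-like nuclei, 60.7% of endothelial-like and 2.69% of stromal-like nuclei held a HoxB UMI. Any Hox UMI was found in 20.9% of stromal-like, 29.2% of endothelial-like, 13.5% of myofibre-like and 5.15% of immune-like nuclei after thinning.

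Within the stroma, levels were compared between populations by pooled UMIs, with no test. The sum over all Hox members was 467 CPM in SSPC-like nuclei (skeletal stem/progenitor cells), 466 in fibroblast-like, 402 in IIFC-like (injury-induced fibrogenic cells), 459 in osteoblast-like, 366 in chondrocyte-like and 449 CPM in the unnamed stromal nuclei. In these populations HoxC was the main cluster and made up between 50.8% (fibroblast-like) and 64.4% (osteoblast-like) of the Hox UMIs. Fibroblast-like nuclei had the highest HoxA sum, 195 CPM (178–212) against 121 CPM (111–131) in IIFC-like nuclei. HoxD gave 32.8 CPM (27.8–38.5) in IIFC-like and 30.0 CPM in fibroblast-like nuclei, 24.9 CPM (15.6–37.7) in SSPC-like, 13.6 CPM (7.63–22.5) in osteoblast-like and 6.31 CPM (3.02–11.6) in chondrocyte-like nuclei. The interval of osteoblast-like nuclei overlapped that of SSPC-like nuclei, while that of chondrocyte-like nuclei did not. The HoxD sums include Hoxd3, Hoxd4, Hoxd9 and Hoxd11, which differed between the gene-list sets, and the populations were not equally spread over the libraries. Chondrocyte-like nuclei had 2 libraries with at least 10 nuclei, so that population and library cannot be told apart in these pooled levels. Adipocyte-like nuclei (58, in 2 libraries) had HoxA as the main cluster, 206 CPM or 66.3% of 98 Hox UMIs.

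**Figure D4:**
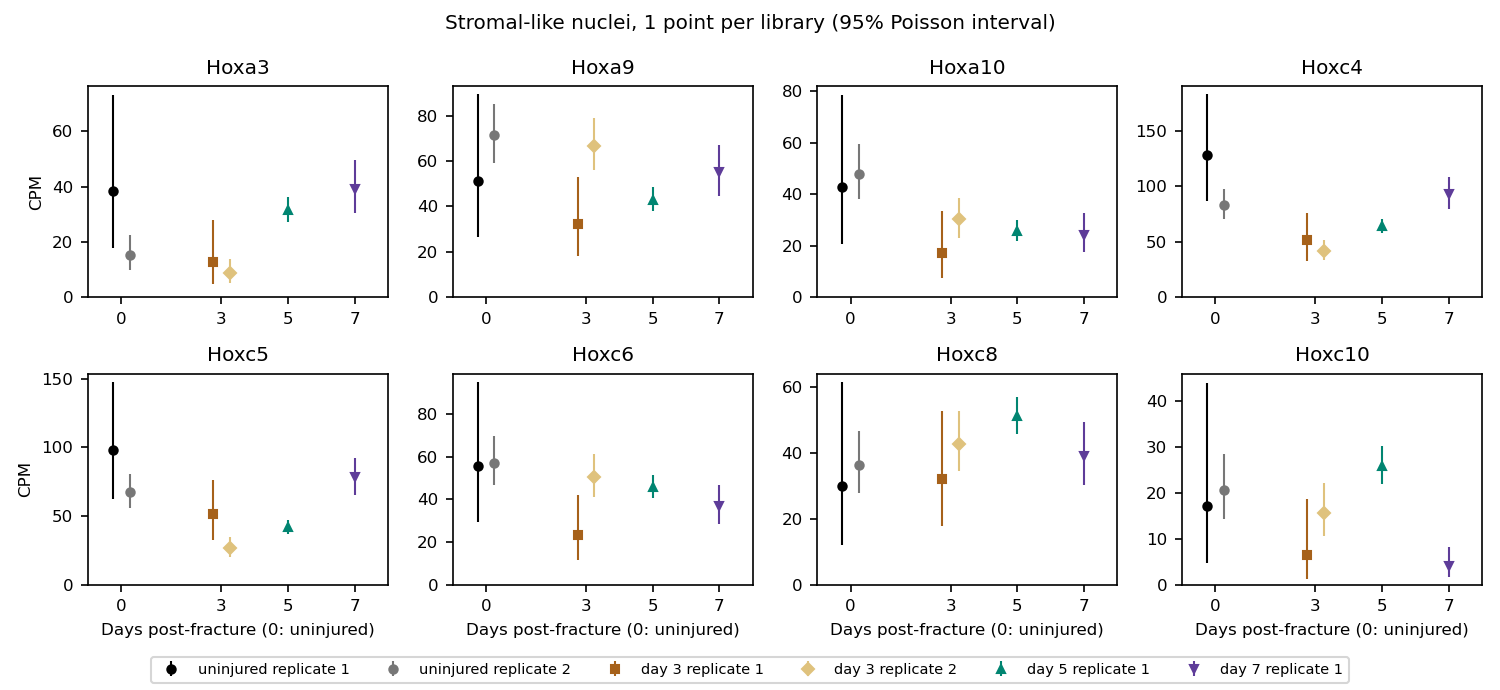
CPM of 8 Hox members in stromal-like nuclei of each library (points, with exact Poisson 95% intervals) against days post-fracture, with uninjured libraries at 0. Hoxc4 stands at 128 and 83.1 CPM uninjured, 51.2 and 41.4 CPM (day 3), 64.0 CPM (day 5) and 93.0 CPM (day 7). The panels of Hoxa10 and Hoxc6 show members whose values also separate the gene-list sets.

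HoxC gave the largest sum in stromal-like nuclei of every library, before and after fracture, and no member was called between day 3 and uninjured. With 2 libraries a group, a missed call does not show that a level was unchanged. Hoxc4 gave 128 and 83.1 CPM uninjured and 51.2 and 41.4 CPM at day 3, without overlap, then 64.0 CPM (day 5) and 93.0 CPM (day 7). Hoxc5 gave 98.2 and 67.3 CPM, then 51.2 and 26.8, and 41.8 and 78.1 CPM at days 5 and 7. For Hoxc4 and Hoxc5, as for Hoxc6 and Hoxa10, both day 3 libraries lay below both uninjured ones. The share of all genes with this order is not given here, so the order alone does not show a fall. Hoxa10 gave 42.7 and 48.0 CPM, then 17.1 and 30.2, and 25.6 and 24.1 CPM, values that also separate the gene-list sets, so that time and gene list cannot be told apart. Hoxc8, in contrast, gave 29.9 and 36.3 CPM uninjured and 32.0 and 42.8 CPM at day 3, with overlapping values, and 51.1 and 39.0 CPM later.

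Of 13 members tested by edgeR between the 2 day 3 and the 2 uninjured libraries, 0 were called, and 1 had an unadjusted p under 0.05. DESeq2 also called 0. Over all 10071 genes tested, 8.1% were called, 3.39% higher and 4.72% lower. The member with the lowest p, Hoxc4, had a log2 fold change of −1.22 ± 0.44 (edgeR adjusted p = 0.137), Hoxc5 of −1.13 ± 0.52 (adjusted p = 0.252) and Hoxa10 of −0.99 ± 0.49 (adjusted p = 0.29). Hoxc8 had 0.09 ± 0.48 (adjusted p = 0.948). The members' median log2 fold change was −0.65, beside 0.01 over all genes tested. Without day 3 replicate 1, which left 1 library at day 3 that is assumed to vary like the others, Hoxc5 was called lower (−1.79, adjusted p = 0.0443). With a single library each, the later time points were left untested.

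The differences between populations were also compared between the uninjured and the fracture libraries as an interaction. Of 51 such tests over the 4 comparisons, 0 reached an adjusted p under 0.05. At an unadjusted p under 0.05 there were 3, Hoxb4, Hoxc5 and Hoxc6 against endothelial-like nuclei, and the lowest adjusted p was 0.210 for Hoxb4. Endothelial-like Hoxb4 and stromal-like Hoxc6 also separated the gene-list sets. Among all genes, 4.21% had an interaction against endothelial-like, 10.8% against pericyte/SMC-like, 6.57% against myofibre-like and 2% against immune-like nuclei. A missed threshold with so few libraries does not show that the populations responded alike.

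Hox proteins bind DNA together with cofactors of the Pbx, Meis and Pknox families. Of 9 cofactor genes, 7 were tested against endothelial-like nuclei, and 3 were higher in stromal-like nuclei, Meis1 (log2 fold change 4.64 ± 0.38, adjusted p = 4.51e-06), Meis2 (3.07 ± 0.49, adjusted p = 0.000458) and Pknox2 (3.23 ± 0.30, adjusted p = 1.07e-05). None of the 7 was lower. Over all genes tested, 17.5% were higher and 13.7% lower. Against myofibre-like nuclei 8 were tested, 5 were higher and 1 was lower, Pknox2 (−1.37 ± 0.29, adjusted p = 0.00287). There 27% of all genes were higher and 21.4% lower. Against immune-like nuclei 4 of 7 were higher, and against pericyte/SMC-like nuclei 1 of 7, Pknox2 (1.79 ± 0.28, adjusted p = 0.00716). Over all genes these shares were 21.9% and 6.22%. At day 3, 1 of 7 cofactors rose in stromal-like nuclei, Pbx3 (1.67 ± 0.36, adjusted p = 0.0209), beside 3.39% of all genes.

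Hindlimb identity genes were present in the stroma. Pitx1, which specifies the hindlimb, gave 10.1 CPM in stromal-like nuclei and 1 UMI in endothelial-like nuclei. It was higher than in myofibre-like (log2 fold change 4.18 ± 0.75, adjusted p = 0.00116) and immune-like nuclei (3.27 ± 0.70, adjusted p = 0.000939). Tbx4, another hindlimb gene, gave 6.73 CPM, Tbx5, known from the forelimb, 2.19 CPM, and Isl1 no UMI. Of the Cdx genes, which switch on Hox clusters in the embryo, Cdx2 and Cdx4 had no UMI in the 4 large populations and Cdx1 had 2 in stromal-like nuclei. Among 9 genes of the Polycomb and Trithorax groups, which keep Hox clusters silent or active, 7 were tested against endothelial-like nuclei. Of these 1 was lower, Eed (−0.52 ± 0.18, adjusted p = 0.0495), beside 13.7% of all genes tested, and 0 were higher. Against myofibre-like nuclei 1 of 8 was higher in stromal-like nuclei, Ezh2 (0.87 ± 0.21, adjusted p = 0.00704), beside 27% of all genes. Against immune-like nuclei 1 of 7 was higher, Bmi1 (1.19 ± 0.43, adjusted p = 0.0341), beside 21.9%. Of these genes 0 were called against pericyte/SMC-like nuclei or at day 3, beside 10.5% and 8.1%. Such single calls do not set this list apart from other genes.

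Noncoding genes of the clusters were also unequal between the populations, by pooled level. Hoxb3os gave 19.0 CPM in endothelial-like nuclei (54 UMIs) and 3 UMIs in stromal-like nuclei. Hoxb5os gave 28 UMIs against 0. In HoxC, Hotair gave 33 UMIs in myofibre-like nuclei (3.93 CPM), 12 in stromal-like nuclei (0.97 CPM) and 0 in endothelial-like nuclei. Whether reads were counted by strand was not given in the sources used here, so these genes may share reads with the Hox genes they overlap.

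The ribosomal-rich barcodes of day 7 held next to no Hox transcripts. These 2096 barcodes, more than the 1351 filtered day 7 nuclei, have at least 1.5% of their UMIs in ribosomal protein genes (median 16.4%) and failed the filters. In 1805001 UMIs they gave 10 Hox UMIs, or 5.54 CPM (2.66–10.2). The filtered day 7 nuclei gave 1094 Hox UMIs in 2630447 UMIs, or 416 CPM (392–441). The intervals were far apart. In the ribosomal-rich barcodes 8 members were detected, Hoxc4 and Hoxc6 with 2 UMIs and Hoxa7, Hoxa9, Hoxa10, Hoxb3, Hoxb6 and Hoxb9 with 1 UMI each. A Hox UMI was found in 10 barcodes (0.477%), against 45.2% of the filtered nuclei, at median depths of 784.5 and 1325 UMIs. No HoxD UMI was seen, which allows up to 2.04 CPM.

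**Figure D5:**
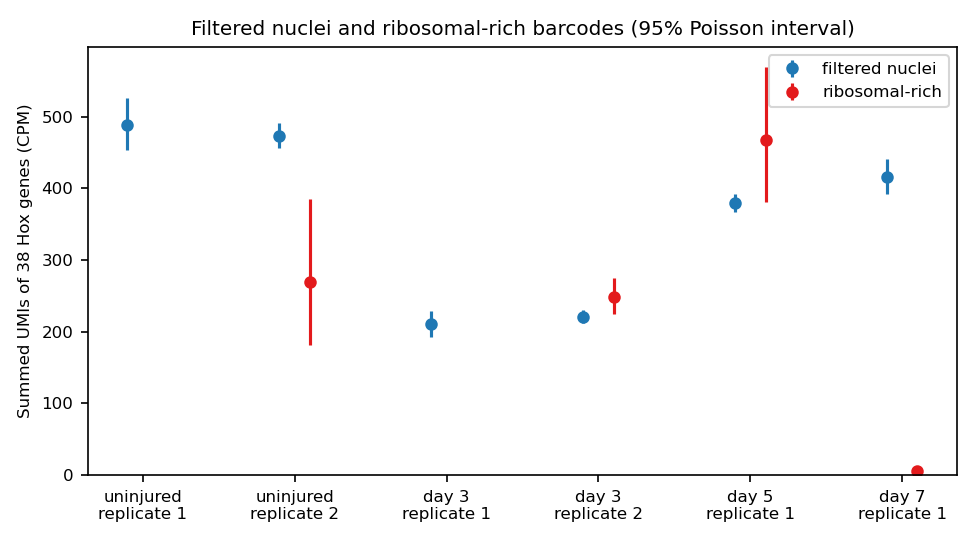
Summed CPM of the 38 Hox genes with exact Poisson 95% intervals in the filtered nuclei (blue) and in the ribosomal-rich barcodes (red, where a library had at least 10) of each library. The ribosomal-rich barcodes of day 7 give 5.54 CPM against 416 CPM in the filtered nuclei of the same library, while those of day 3 replicate 2 give 249 CPM against 221 CPM.

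Ribosomal-rich barcodes of other libraries did carry Hox transcripts. In day 3 replicate 2 the 2017 such barcodes gave 249 CPM (225–275), beside 221 CPM in its filtered nuclei. In day 5 (100 barcodes) they gave 468 CPM, and in uninjured replicate 2 (74 barcodes) 269.7 CPM. Among the day 7 barcodes, the 1627 of a cluster led by Dcc, Stmn1 and Cadps gave 5 Hox UMIs (3.49 CPM), and the 460 of a cluster led by Ttr, Trpm3 and Htr2c gave 2 (5.51 CPM). Neither cluster stood out in Hox level, and with under 2% mitochondrial UMIs (1012 barcodes) the level was again 5.54 CPM. Each is from 1 library, with no replicate.

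The markers of the tibial populations were also low in the day 7 ribosomal-rich barcodes. The IIFC list gave 56.0 CPM against 3298 CPM in the filtered day 7 nuclei, the myofibre list 45.4 against 8195 CPM and the endothelial list 26.0 against 252 CPM, with 6 of 6, 7 of 7 and 6 of 6 genes detected. Ptprc, Itgam, Csf3r and Dock2 of the 7 immune genes were at 0. The levels of the other immune genes are not given here, so the immune list as a whole is not compared. The cofactor and Polycomb genes named above were present. Meis2 gave 186 CPM, Pknox2 132 CPM and Ezh2 499.7 CPM, whereas Pitx1, Tbx4, Tbx5 and the 7 noncoding genes of the clusters had no UMI. The part of sample source, cell type or RNA quality in this difference was not tested.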

How the data were processed

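Nuclei were sorted and sequenced with the 10x Genomics 3′ chemistry. By labels and file headers, reads were counted with Cell Ranger (6.0.0 for uninjured replicate 1, day 5 and day 7, 7.1.0 for the others). The study's methods give mm10 as the reference, exons and introns included. The protocol text in the labels names a human reference, but the listed gene IDs are mouse. The authors deposited raw UMI counts per gene and barcode. Of the listed genes, the 30406 shared by all libraries were used. A barcode was kept with 200 to 5000 genes detected, less than 2% of its UMIs from mitochondrial genes and less than 1.5% from ribosomal protein genes. Scrublet (in scanpy 1.11.5) marked 2 to 17 nuclei a library as doublets, which were kept, and their removal was an alternative. Libraries were integrated in Seurat 5.3.0 (2000 features, 20 components, resolution 1.3) without Hox, pathway and marker genes, and clusters were named from fixed markers. UMI counts were summed per library and population with at least 10 nuclei and tested with edgeR 4.0.16 (quasi-likelihood, TMM, filterByExpr, library as a block between populations, none between day 3 and uninjured), with Benjamini-Hochberg adjustment over all genes tested. DESeq2 1.42.0, no filter, other clusterings and libraries left out were alternatives. The tests against endothelial-like nuclei and between day 3 and uninjured were checked on simulated data, and the other tests were not. On simulated data, the day 3 test missed most genes changed by log2 2. Every listed member is accounted for, and those that passed a filter, or had at least 20 UMIs in any 1 library, are described. The members and lists were chosen with earlier results of these data known. Some genes of the fixed lists and some sequences are not reported here.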

Additional observations from a re-analysis of the deposited data

Results flagged for a closer look

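The neural progenitor marker list, which belongs to no population named in the filtered nuclei, gave 844 CPM in the ribosomal-rich day 7 barcodes that were nearly without Hox transcripts. All 6 genes were detected, led by Sox2 (307 CPM), Emx2 (186 CPM) and Pax6 (143 CPM). This is a signal in barcodes outside the tests, above the 89.9 CPM of the ribosomal-rich barcodes of uninjured replicate 2, and the filtered day 7 nuclei gave 11.0 CPM. Emx2 is known from the forebrain, and Pax6 from the brain and eye. The neuron list gave 207 CPM in the same barcodes, with 6 of 7 genes detected. Their part in the low Hox level was not tested. No condition had more than 2 libraries, so single libraries were not screened as outliers.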

How the results depend on the processing

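For the 35 calls of members between populations, 538 of 550 values under alternatives kept direction and call, 12 lost the call and 0 changed sign. Alternatives in which a member did not pass the count filter, and so could not be called, are not counted among these values. Of 398 values for members not called, 58 changed sign, none of them past the threshold, and 1 gained a call. No paired analysis was possible because the labels give the libraries no replicate numbers; populations were already blocked by library.

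With the uninjured libraries alone, 5 of 14 members tested were called lower against endothelial-like nuclei, beside 1037 of 8628 genes. Against myofibre-like nuclei 2 of 11 were higher, beside 2139 of 9604 genes. Against immune-like nuclei 3 of 5 were higher and 0 lower, beside 339 and 280 of 5552 genes. A split by gene list was chosen after seeing the data. In the libraries with a longer list, 3 of 13 members were higher against myofibre-like nuclei, beside 2347 of 10314 genes. There 1 of 10 was lower against immune-like nuclei, beside 1669 of 9340 genes. With the shorter list 0 of 12 were lower against immune-like nuclei, beside 967 of 10868 genes. Leaving out 1 library gave 0 to 2 lower members against immune-like nuclei (0 without day 3 replicate 2 or day 5, where 7 members passed the filter), and 0 to 1 at day 3 (Hoxc5, without day 3 replicate 1). Over all filtered nuclei of a library, with every population mixed, 1 of 19 members tested was lower at day 3, beside 242 of 13848 genes. It was Hoxb6 (−3.17, edgeR adjusted p = 0.0408), which gave 219 CPM in endothelial-like nuclei. This setting cannot tell a change within the stroma from a change in the mix of populations. Against immune-like nuclei, 1318 of 8304 genes were lower without day 3 replicate 2, and 1314 of 8476 without day 5. Fewer libraries also test fewer genes, and other causes were not tested.

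Members not called changed sign as follows, in log2. Against endothelial-like nuclei, Hoxa3 ran from −0.18 to 0.083 without 1 library, with 0.036 at 5% mitochondrial UMIs and 0.30 in uninjured libraries, and Hoxa5 gave 0.23 in libraries with the shorter list. Against pericyte/SMC-like nuclei, Hoxa3 ran from −0.36 to 0.64 without 1 library, with −0.079 unintegrated, −0.044 at 5% mitochondrial UMIs and −0.77 in fracture libraries. Hoxa9 ran from −0.19 to 0.22, with 0.15 unfiltered, 0.031 unintegrated, 0.015 at 5% mitochondrial UMIs, 0.099 without the tendon-like cluster and 0.17 in fracture libraries. Hoxc4 ran from −0.19 to 0.11, with 0.15 unfiltered, 0.089 at 5% mitochondrial UMIs and 0.15 in uninjured libraries.

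Against myofibre-like nuclei, without 1 library, Hoxa3 ran from −0.062 to 0.13, Hoxc4 from −0.17 to 0.098, Hoxc5 from −0.14 to 0.17, Hoxc8 from −0.14 to 0.21 and Hoxc9 from −0.24 to 0.10. Hoxa3 gave −0.017 unintegrated, −0.00065 with Hox and marker genes as features and −0.11 in libraries with a longer list, where Hoxc4 gave 0.045, Hoxc5 0.23 and Hoxc9 0.24. With the shorter list Hoxc10 gave −0.080 and Hoxc8 −0.32, and in uninjured ones Hoxc8 gave −0.50. In fracture libraries Hoxc5 gave 0.080 and Hoxc9 0.0081. Hoxc9 gave 0.022 at 5% mitochondrial UMIs, Hoxc4 0.0098 by DESeq2, and Hoxc8 −0.0021 unintegrated and −0.0015 without the tendon-like cluster. At day 3, without 1 library, Hoxc11 ran from −0.29 to −0.093, Hoxc9 from −0.55 to 0.0094 and Hoxc8 from −0.00061 to 0.30. Hoxd8 gave −0.75 over all filtered nuclei, Hoxc9 0.095 by DESeq2 and 0.016 at 5% mitochondrial UMIs, and Hoxc8 −0.054 without the tendon-like cluster.

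Shares rose with depth. At 1000 UMIs any Hox UMI was found in 33.7% of stromal-like, 46.7% of endothelial-like, 23.0% of myofibre-like and 6.44% of immune-like nuclei, and without thinning in 61.0%, 68.8%, 56.5% and 16.6%. HoxB was found in 37.8% of endothelial-like and 3.50% of immune-like nuclei at 1000 UMIs, and in 60.7% and 9.21% without thinning, with 2.69% of stromal-like and 1.38% of myofibre-like nuclei. HoxC was found in 20.5% of stromal-like and 16.6% of myofibre-like nuclei at 1000 UMIs, and without thinning in 42.1% and 45.3%, with 2.49% of endothelial-like and 4.25% of immune-like nuclei.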
